A study of Mus musculus with 10 samples.

Results

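The endoplasmic reticulum (ER) folding machinery and the unfolded protein response were followed through 37 genes. They were chosen by their function, with earlier results of these data known: ER chaperones, disulfide and prolyl isomerases, the translocon, ER-associated degradation and the sensors of unfolded protein. All 37 were among the 22731 genes of the count table, and 36 had enough reads to be tested. The libraries were bulk RNA-seq of mouse fibroblasts of genotype C57B6, in 3 groups. Fibroblasts cocultured with WT group 2 innate lymphoid cells (ILC2s) gave 3 libraries, those cocultured with IL13KO ILC2s, which lack interleukin 13 (IL-13), gave 3, and fibroblasts in monoculture gave 4. The knockout is in the lymphocytes, and the fibroblasts are labelled C57B6 in every group. The series title places the fibroblasts in the pancreas. Per the series' design text they were sorted as cells positive for Pdpn and Pdgfra that lacked CD45, Epcam and CD31, and after coculture as Pdpn- and Pdgfra-positive cells with a gate written as CD45+. The labels name no animal, culture day or batch, so p-values measure the spread between these libraries, which may be technical. WT coculture libraries carry the numbers 1, 3 and 4 of the count table.

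Proteins that a fibroblast secretes, collagens above all, enter the ER through the SEC61 translocon and fold there with the help of the HSP70 chaperone BiP, its cofactors, the HSP90 chaperone GRP94, lectin chaperones for glycoproteins and disulfide isomerases. Proteins that fail to fold are drawn back into the cytosol and degraded. When unfolded protein builds up, IRE1, PERK and ATF6 signal from the ER membrane. IRE1 splices Xbp1 mRNA, PERK slows translation, and the released part of ATF6, with XBP1, raises transcription of chaperone and degradation genes.

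Total counts were 18801744 to 22087459 with WT ILC2s, 17277432 to 17661229 with IL13KO ILC2s and 10710410 to 14366199 in monoculture. The WT coculture libraries held 30, 120 and 121 reads of Il13 itself, and every other library held 0. Each fibroblast marker of the list (Pdgfra, Pdpn, Col1a1, Col1a2, Col3a1, Dcn, Lum and Thy1) was detected in each library, and their sum was 11200 to 15600 CPM with WT ILC2s, 21800 to 27100 with IL13KO ILC2s and 7360 to 10100 in monoculture. In the WT against the IL13KO cocultures 1 of the 8 was called higher, Thy1 (0.54 ± 0.14), and 3 lower, Lum (-2.26 ± 0.20), Dcn (-2.16 ± 0.20) and Col3a1 (-1.11 ± 0.20), as log2 fold changes with SE. Ptprc, the gene of CD45, had 6, 3 and 9 reads with WT ILC2s, 0, 1 and 0 with IL13KO ILC2s and 0 in monoculture. The 8 leukocyte markers summed to 109 to 140 CPM (read counts scaled to a common library size) with WT ILC2s, 26.0 to 33.9 with IL13KO ILC2s and 10.6 to 19.0 in monoculture. In the WT cocultures most of this sum was Cd53, and in monoculture most was Arhgdib. Of the ILC2 list 10 genes were measured, and they summed to 1290 to 1550 CPM with WT ILC2s, most of it Il1rl1, 78.5 to 85.4 with IL13KO ILC2s and 67.5 to 84.3 in monoculture. With IL13KO ILC2s and in monoculture most of this sum was Rora. Of the 7 tested genes 4 were called higher in the IL13KO cocultures against monoculture: Il1rl1 (1.21 ± 0.17, edgeR adjusted p = 7.75e-05), Il5, Il2ra and Gata3. Il5 had 30, 64 and 12 reads with IL13KO ILC2s and 0 in monoculture. The cell source of these reads was not tested. Plasma and B cell markers, of which 2 of 8 were measured, summed to at most 0.422 CPM in any library. Macrophage markers summed to 14.7 to 17.5 CPM with WT ILC2s, 35.2 to 37.1 with IL13KO ILC2s and 58.4 to 65.3 in monoculture. These differences lay in Lyz2, which averaged 2.85 CPM with WT ILC2s, 23.8 with IL13KO ILC2s and 53.4 in monoculture. Csf1r went the other way, at 12.9, 12.2 and 8.999 CPM in these groups. It was called higher in the WT cocultures against monoculture (0.52 ± 0.18, edgeR adjusted p = 0.0225). Adgre1 and Cd68 had at most 11 reads in any library. Mural cell markers summed to 31.6 to 32.4 CPM with WT ILC2s, 96.9 to 134 with IL13KO ILC2s and 83.9 to 95.5 in monoculture. The part of these sums in the results below was not tested. In bulk RNA, fewer cells of a type cannot be told apart from less RNA per cell.

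In the WT cocultures the 37 genes together took 2.54% to 2.80% of all counts, against 1.94% to 2.03% with IL13KO ILC2s and 1.69% to 1.93% in monoculture. None of the 3 groups overlapped with another in this share. Summed as CPM, the genes stood at 25150 to 28410 with WT ILC2s, 19450 to 19870 with IL13KO ILC2s and 16650 to 19590 in monoculture. On that scale the IL13KO cocultures and monocultures overlapped. In the WT against the IL13KO cocultures 13 of the 36 tested genes were called higher and 1 lower by edgeR's quasi-likelihood test at an adjusted p of 0.05, where 11.7% of all 16344 tested genes were called higher and 11.7% lower. The groups did not overlap for 19 genes that were higher and 1 that was lower in the WT cocultures (24.2% and 24.8% of all tested genes). Over the 36 genes the median log2 fold change was 0.26, beside -0.00 for all tested genes. Tested against a change of 1.5-fold, 4 were called higher (Manf, Sdf2l1, Hspa5 and Creld2) and 0 lower, beside 3.27% and 3.49% of all tested genes. For a change of any size, Xbp1 was the 1 gene that was lower at an unadjusted p under 0.05, and the 1 called lower by DESeq2 and by limma-voom. Without WT coculture 3 or 4, monoculture 2 or any of the IL13KO cocultures, 0 were called lower.

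Against monoculture the WT cocultures had 23 of the 36 genes called higher and 5 lower, where 32.8% and 29.7% of all tested genes were called. Without WT coculture 1 or 4 the lower calls numbered 2 and 3. The median log2 fold change was 0.73, beside 0.02 for all tested genes. Beyond 1.5-fold the counts were 16 higher and 1 lower (22.0% and 13.9% of all tested genes). In the IL13KO cocultures 19 genes were called higher and 6 lower against monoculture, where 30.1% and 27.2% of all tested genes were called, and the median was 0.25, beside 0.00. Beyond 1.5-fold these counts were 8 and 1 (18.9% and 6.98% of all tested genes). The comparisons share libraries, so their values are not independent of each other.

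Fold changes against monoculture varied with the GC content of the transcript, with a Spearman correlation across all 16313 genes with a value of 0.339 in the WT and 0.404 in the IL13KO comparison, and -0.0482 between the cocultures. Across the 36 tested genes of the set it was 0.417, 0.459 and 0.0813 in these comparisons, a description over genes that share the same libraries. After a loess correction of each library for GC content and transcript length, 20 genes of the set were called higher and 7 lower in the WT cocultures against monoculture, 9 and 8 in the IL13KO cocultures against monoculture, and 18 and 0 in the WT against the IL13KO cocultures. Over all 16344 tested genes these counts were 4120 higher and 5511 lower in the WT comparison with monoculture, and 2364 and 1964 between the cocultures. The IL13KO calls over all tested genes against monoculture, 4926 higher and 4448 lower, became 3025 and 4978, a share of higher calls of 37.8% in place of 52.5%. Values after that correction therefore stand beside many of the genes they move.

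**Figure D1:**
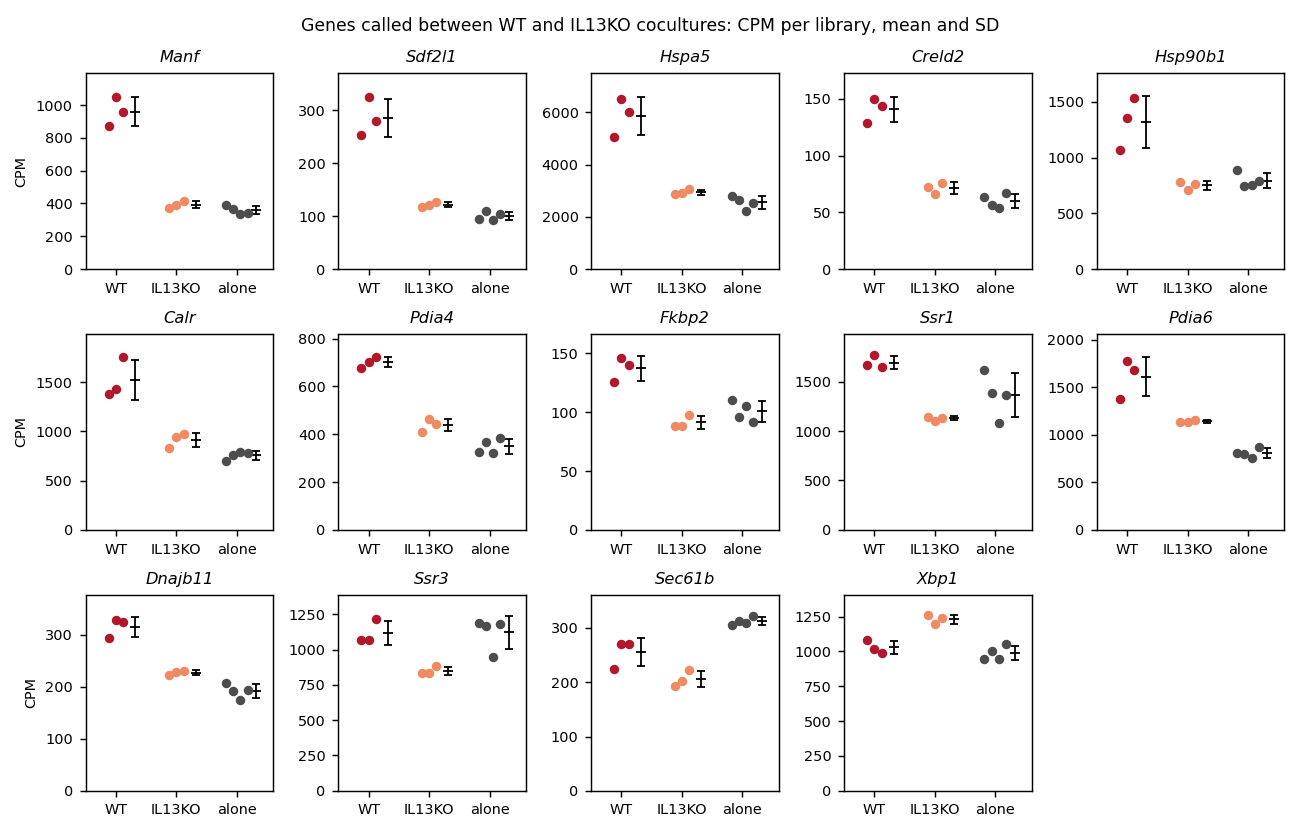
CPM in each library (points), with the mean and SD beside them, of the 14 genes called between the WT and IL13KO cocultures, for fibroblasts with WT ILC2s, with IL13KO ILC2s and alone. In the 13 panels from Manf to Sec61b each WT coculture library lies above each IL13KO coculture library, and in the Xbp1 panel each lies below.

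Hspa5 encodes BiP, the HSP70 chaperone of the ER lumen. It had 5062, 6499 and 6031 CPM with WT ILC2s, 2854, 2899 and 3053 with IL13KO ILC2s and 2782, 2650, 2222 and 2546 in monoculture. Every WT coculture library was above every other library. The log2 fold change was 1.0 ± 0.11 (SE) in the WT against the IL13KO cocultures (edgeR adjusted p = 3.9e-05), 1.20 ± 0.10 in the WT cocultures against monoculture (6.76e-07) and 0.20 ± 0.10 in the IL13KO cocultures against monoculture (0.104). Per kilobase of exon, Hspa5 had the highest mean level of the 37 genes in the WT cocultures (1387 CPM per kb) and stood at 694 in the IL13KO cocultures, below P4hb at 730.4, and at 603 in the monocultures, below Pdia3 at 725.

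Chaperone promoters are known for the ER stress response element (ERSE), to which ATF6 and XBP1 bind together with the factor NF-Y. It was searched as the letters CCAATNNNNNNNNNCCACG, and its shorter relative ERSE-II as ATTGGNCCACG, on both strands of a window of 250 bases before and 50 after each gene's start in RefSeq (build GRCm38.p6). Of the 37 genes 31 had a window. ERSE letters stood in 9 of these 31 windows (29.0%), beside 39 of 32851 windows of all genes (0.119%), and ERSE-II letters in 2 (6.45%), beside 12 (0.0365%). No window of the set held both motifs. The 250 bases before the starts of Hspa5, which differed between the cocultures, and of Syvn1, which did not pass that test, are shown because both hold the exact letters, at -65 to -47 and -44 to -26. Capitals mark the fixed letters of the motif.
Hspa5 (chr2:34771840-34772089, plus strand): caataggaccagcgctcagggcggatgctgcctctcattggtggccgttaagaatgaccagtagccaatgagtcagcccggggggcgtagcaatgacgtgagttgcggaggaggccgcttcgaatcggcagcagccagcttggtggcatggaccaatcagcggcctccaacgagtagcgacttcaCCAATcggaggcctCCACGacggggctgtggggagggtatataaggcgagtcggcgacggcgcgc
Syvn1 (chr19:6046326-6046575, plus strand): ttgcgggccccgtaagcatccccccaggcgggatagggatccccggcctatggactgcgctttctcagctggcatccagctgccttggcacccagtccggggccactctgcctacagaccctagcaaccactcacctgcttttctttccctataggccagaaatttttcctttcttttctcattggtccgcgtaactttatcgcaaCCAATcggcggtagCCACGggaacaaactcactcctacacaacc

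Shorter stretches of up to 15 bases on each side of the motif show how its orientation and spacer vary among the other tested genes that hold it. Calr, Creld2 and the second site of Hsp90b1 hold it as the reverse complement, so that their capitals read CGTGG and ATTGG. Sites lie at -162 to -144 in Calr, -212 to -194 and -107 to -89 in Hsp90b1, -126 to -108 in Creld2, -98 to -80 in Pdia6, -145 to -127 in Canx and -105 to -87 in Dnajc3. The last pair of lines holds ERSE-II, at 8 to 18 in Dnajb11 and -52 to -42 in Herpud1.
Calr (chr8:84847060-84847108, minus strand): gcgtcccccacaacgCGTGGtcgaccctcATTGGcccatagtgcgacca
Hsp90b1 (chr10:86705623-86705671, minus strand): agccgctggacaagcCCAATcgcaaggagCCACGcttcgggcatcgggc
Hsp90b1 (chr10:86705518-86705566, minus strand): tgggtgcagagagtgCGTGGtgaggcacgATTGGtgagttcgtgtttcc
Creld2 (chr15:88819505-88819553, plus strand): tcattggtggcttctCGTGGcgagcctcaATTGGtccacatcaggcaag
Pdia6 (chr12:17266476-17266524, plus strand): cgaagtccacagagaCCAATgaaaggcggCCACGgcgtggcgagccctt
Canx (chr11:50325785-50325833, minus strand): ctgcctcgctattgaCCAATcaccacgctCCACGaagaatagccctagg
Dnajc3 (chr14:118937812-118937860, plus strand): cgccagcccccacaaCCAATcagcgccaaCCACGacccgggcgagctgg
Dnajb11 (chr16:22857837-22857862, plus strand): atgtccccggcggcgATTGGcCCACG
Herpud1 (chr8:94386362-94386402, plus strand): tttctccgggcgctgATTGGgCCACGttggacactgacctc

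Derl3, which had too few reads to be tested, also held ERSE letters. Of the 8 tested genes with ERSE letters 5 were called higher in the WT against the IL13KO cocultures (Hspa5, Calr, Hsp90b1, Creld2 and Pdia6), and of the 22 tested genes whose window lacked them 7 were called higher and 1 lower. Both shares of higher calls were above the 11.7% of all tested genes, and the difference between them was not tested. Sdf2l1 is among those without the letters, and Manf, Hyou1, Sec61a1, Sil1, Derl1 and Atf6 had no window. A match is a string of letters and not a measured binding site.

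Manf and Sdf2l1 had the largest fold changes of the 36 genes between the cocultures. Manf encodes a small ER protein that binds BiP and can be secreted. It had 874, 1050.0 and 955 CPM with WT ILC2s, 372, 391 and 416 with IL13KO ILC2s and 392, 368, 334 and 343 in monoculture, a log2 fold change of 1.29 ± 0.10 in the WT against the IL13KO cocultures (edgeR adjusted p = 2.17e-06). Sdf2l1, whose product works with the J-protein ERdj3, had 252, 324 and 280 CPM with WT ILC2s, 117, 120 and 127 with IL13KO ILC2s and 94.6, 110, 93.2 and 104 in monoculture, a change of 1.24 ± 0.11 (6.97e-06). For both genes the lowest WT coculture library lay above the highest of the others. Against monoculture the WT changes were 1.42 ± 0.09 for Manf and 1.51 ± 0.10 for Sdf2l1, and the IL13KO changes 0.13 ± 0.09 (edgeR adjusted p = 0.235) and 0.27 ± 0.10 (0.0351). The small IL13KO call of Sdf2l1 ended without any of the IL13KO cocultures or monoculture 1, 3 or 4 (0.0525 to 0.107), with upper-quartile scaling (0.178) and after GC and length correction (0.09, 0.45).

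ERdj3 itself is encoded by Dnajb11, which had 293, 327 and 325 CPM with WT ILC2s, 223, 229 and 230 with IL13KO ILC2s and 207, 191, 174 and 194 in monoculture. Its log2 fold change was 0.47 ± 0.09 in the WT against the IL13KO cocultures (edgeR adjusted p = 0.00198) and 0.72 ± 0.08 and 0.25 ± 0.08 in the WT and IL13KO cocultures against monoculture. The IL13KO call (0.0216) ended without IL13KO coculture 2 or 3 (0.0568 and 0.0598), with upper-quartile scaling (0.179) and after GC and length correction (0.01, 0.91). Of other J-protein genes, Dnajb9 and Dnajc3 were not called higher, and Dnajc10 is described below with the disulfide isomerases. Dnajb9, the gene of ERdj4, which favours degradation of unfolded protein, was lower in both cocultures, with 120.0, 131 and 143 CPM with WT ILC2s, 139, 149 and 145 with IL13KO ILC2s and 268, 266, 205 and 251 in monoculture. Its log2 fold changes against monoculture were -0.91 ± 0.11 and -0.78 ± 0.11 (9.79e-06 and 5.3e-05), after that correction -0.48 and -0.35, and it was not called between the cocultures (-0.13 ± 0.11, 0.426). Dnajc3, whose product p58IPK restrains PERK, averaged 460 ± 19.6 CPM with WT ILC2s, 403 ± 9.94 with IL13KO ILC2s and 413 ± 69.2 in monoculture (SD, n = 3, 3 and 4) and passed no test, although it was called higher in the WT cocultures against monoculture once monoculture 1 was left out (0.27, 0.0109).

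Hyou1 and Sil1 encode the nucleotide exchange factors that let BiP release its client. Hyou1 was among the genes of the set with the largest change against monoculture. It had 79.1, 70.1 and 46.8 CPM with WT ILC2s, 36.4, 51.6 and 50.1 with IL13KO ILC2s and 3.04, 3.48, 8.39 and 5.20 in monoculture. The lowest coculture library was thus above the highest monoculture library, while the WT and IL13KO cocultures overlapped. Log2 fold changes were 3.71 ± 0.29 and 3.21 ± 0.29 for the WT and IL13KO cocultures against monoculture (edgeR adjusted p = 3.59e-07 and 2.62e-06), after GC and length correction 2.79 and 2.17, and 0.51 ± 0.27 between the cocultures (0.205, after that correction 0.63, 0.0366). Sil1 averaged 41.9 ± 8.91 CPM with WT ILC2s, 51.3 ± 3.68 with IL13KO ILC2s and 37.8 ± 2.30 in monoculture (SD, n = 3, 3 and 4). It was called higher in the IL13KO cocultures against monoculture (0.44 ± 0.14, 0.0138), a call that ended without IL13KO coculture 1 (0.0593) and after that correction (0.04, 0.838). Without WT coculture 1, Sil1 was called in the WT cocultures against monoculture as well (0.32, 0.0337).

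Hsp90b1 encodes GRP94, the ER form of HSP90. It had 1065, 1357 and 1533 CPM with WT ILC2s, 778, 709 and 762 with IL13KO ILC2s and 886, 750, 751 and 788 in monoculture. Each WT coculture library was above the others, and the IL13KO cocultures overlapped with monoculture. The log2 fold change was 0.81 ± 0.12 in the WT against the IL13KO cocultures (edgeR adjusted p = 0.000467), 0.73 ± 0.11 in the WT cocultures against monoculture (0.000106; after GC and length correction 1.01) and -0.08 ± 0.12 in the IL13KO cocultures against monoculture (0.562; after that correction 0.18, 0.137). Other annotated genes share 5.38% of its exon length on the same strand and 10.3% on the opposite strand, and 8.85% of that of Manf on the opposite strand, and no source used here states whether the counting used strand, so reads of these stretches could belong to either gene.

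Of the lectin chaperones, which hold newly made glycoproteins in cycles of folding, 1 of 2 was called between the cocultures. Calr, the gene of the soluble calreticulin, had 1384, 1432 and 1754 CPM with WT ILC2s, 833, 943 and 971 with IL13KO ILC2s and 694, 757, 792 and 779 in monoculture. Its log2 fold change was 0.73 ± 0.11 in the WT against the IL13KO cocultures (edgeR adjusted p = 0.000342), 1.01 ± 0.10 in the WT cocultures against monoculture (2.21e-06) and 0.28 ± 0.10 in the IL13KO cocultures against monoculture (0.0294). The last call ended without IL13KO coculture 2 or 3 or monoculture 1 or 2 (0.0589 to 0.105), with upper-quartile scaling (0.155) and after GC and length correction (0.20, 0.084). Canx, the gene of the membrane-bound calnexin, had 1605, 1545 and 1601 CPM with WT ILC2s, 1420, 1339 and 1309 with IL13KO ILC2s and 2611, 1905, 1641 and 1966 in monoculture. Each coculture library was below each monoculture library, by a log2 fold change of -0.36 ± 0.13 with WT ILC2s (0.0256) and -0.58 ± 0.13 with IL13KO ILC2s (0.00178), and the WT lay above the IL13KO coculture libraries without a call (0.22 ± 0.14, 0.261; called at 0.23, 0.0484, in a fit of the cocultures alone). The WT call of Canx ended without any WT coculture library (0.0607 to 0.0777), with only the groups compared in the fit (0.0511) and after that correction (-0.15, 0.225).

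**Figure D2:**
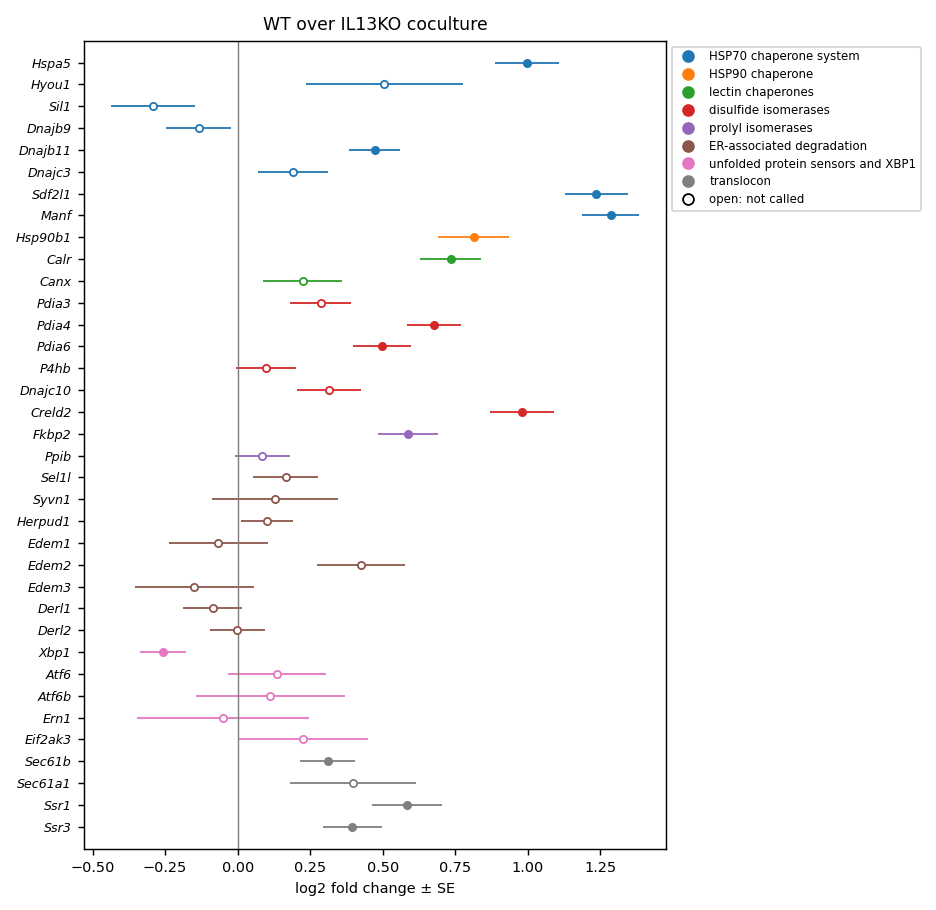
Log2 fold change of the WT over the IL13KO cocultures with its SE for the 36 tested genes, grouped and coloured by role, with open circles for genes that were not called. The 13 genes called higher lie among the chaperones, isomerases and translocon genes, the degradation genes are all open, and Xbp1 is the filled circle left of 0.

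Disulfide isomerases form and reshuffle the disulfide bonds of secreted proteins. Between the cocultures 3 of these 6 genes were called higher. Pdia4 (ERp72) had 678, 704 and 723 CPM with WT ILC2s, 410, 463 and 443 with IL13KO ILC2s and 325, 367, 323 and 383 in monoculture. Its log2 fold change was 0.68 ± 0.09 in the WT against the IL13KO cocultures (edgeR adjusted p = 0.000225), 1.01 ± 0.09 in the WT cocultures against monoculture and 0.33 ± 0.09 in the IL13KO cocultures against monoculture (0.00576). The 3 groups of Pdia4 did not overlap, and the same held for Pdia6. Pdia6 had 1380.0, 1776 and 1683 CPM with WT ILC2s, 1134, 1135 and 1159 with IL13KO ILC2s and 811, 797, 759 and 877 in monoculture, with changes of 0.50 ± 0.10 in the WT against the IL13KO cocultures (0.00331), 0.99 ± 0.09 in the WT cocultures against monoculture (1.63e-06) and 0.49 ± 0.09 in the IL13KO cocultures against monoculture (0.00061). Creld2, an ER-resident protein with isomerase activity, had 129, 150 and 144 CPM with WT ILC2s, 72.4, 65.9 and 75.8 with IL13KO ILC2s and 63.4, 56.3, 53.8 and 67.2 in monoculture. The change of Creld2 was 0.98 ± 0.11 in the WT against the IL13KO cocultures (4.71e-05), 1.23 ± 0.10 in the WT cocultures against monoculture and 0.25 ± 0.10 in the IL13KO cocultures against monoculture (0.0588, and 0.0359 to 0.0488 without monoculture 1 or 4).

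P4hb, Pdia3 and Dnajc10 were not called between the cocultures. P4hb encodes protein disulfide isomerase, which is also the beta subunit of collagen prolyl 4-hydroxylase. It had 1943, 2370 and 2400 CPM with WT ILC2s, 2045, 2085 and 2139 with IL13KO ILC2s and 1206, 1458, 1334 and 1444 in monoculture, so both cocultures lay above monoculture and overlapped with each other. Against monoculture its log2 fold changes were 0.72 ± 0.10 and 0.62 ± 0.10 (edgeR adjusted p = 3.1e-05 and 0.000143), and after GC and length correction 0.03 (0.799) and -0.16 (0.245). Pdia3 (ERp57), the partner of calnexin and calreticulin, averaged 2479 ± 302 CPM with WT ILC2s, 2033 ± 54.6 with IL13KO ILC2s and 2275 ± 193 in monoculture (SD, n = 3, 3 and 4) and was not called in any of the 3 comparisons. Between the cocultures it stood at 0.29 ± 0.10 (0.0666), below the threshold without WT coculture 1 or monoculture 1 or 3 (0.0144 to 0.0461) and by DESeq2 (0.0439) and limma-voom (0.0465). The same held with only these groups in the fit (0.0427) and after GC and length correction (0.0388). Without WT coculture 1, Pdia3 was called in the WT cocultures against monoculture too (0.23, 0.0469). Dnajc10 (ERdj5), a reductase that opens disulfides before degradation, averaged 251 ± 5.51 CPM with WT ILC2s, 202 ± 0.660 with IL13KO ILC2s and 187 ± 26.3 in monoculture and was called higher in the WT cocultures against monoculture (0.42 ± 0.10, 0.00318). In the WT against the IL13KO cocultures Dnajc10 was at 0.32 ± 0.11 (0.0572, by DESeq2 0.0361, by limma-voom 0.0407, and 0.00941 to 0.0451 without monoculture 1 or 3). It was also called with only these groups in the fit (0.00615) and after GC and length correction (0.34, 0.0174).

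Prolyl isomerases help proline-rich chains to fold, and 1 of these 2 genes was called between the cocultures. Fkbp2 had 125, 146 and 140 CPM with WT ILC2s, 88.0, 87.9 and 97.8 with IL13KO ILC2s and 111, 95.8, 105 and 91.4 in monoculture, with a log2 fold change of 0.59 ± 0.10 in the WT against the IL13KO cocultures (edgeR adjusted p = 0.00129). It was called in the WT cocultures against monoculture (0.45 ± 0.10, 0.00129), a value that turned to -0.44 (0.0246) after GC and length correction, and in the IL13KO cocultures -0.14 ± 0.10 (0.225) became -1.20 (3.99e-05). The longest transcript of Fkbp2 has a GC content of 62.6%, above that of 98.7% of all tested genes. Ppib, the gene of cyclophilin B, which binds the collagen 3-hydroxylation complex, averaged 489 ± 62.0 CPM with WT ILC2s, 461 ± 8.83 with IL13KO ILC2s and 458 ± 10.5 in monoculture (SD, n = 3, 3 and 4). Ppib was not called in the 3 comparisons, but without WT coculture 1 it was called higher in the WT cocultures against monoculture (0.21, 0.035). After GC and length correction it was called lower against monoculture in the WT (-0.30, 0.0203) and IL13KO cocultures (-0.41, 0.00381). Snx22 on the other strand shares 25.0% of the exon length of Ppib.

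The 4 genes of the translocon, through which secretory proteins enter the ER, all averaged higher in the WT than in the IL13KO cocultures, and 3 were called. Ssr1 and Ssr3 encode subunits of the translocon-associated protein complex. Ssr1 had 1664, 1767 and 1647 CPM with WT ILC2s, 1146, 1104 and 1137 with IL13KO ILC2s and 1623, 1381, 1085 and 1362 in monoculture, a log2 fold change of 0.58 ± 0.12 in the WT against the IL13KO cocultures (edgeR adjusted p = 0.00363). Against monoculture Ssr1 was called higher in the WT cocultures (0.31 ± 0.11, 0.0261) and stood at -0.27 ± 0.11 in the IL13KO cocultures (0.0539). The WT call of Ssr1 ended without WT coculture 3 or monoculture 4 (0.0556 to 0.0972), with upper-quartile scaling (0.163), with only the groups compared (0.0562) and after GC and length correction (0.16, 0.272). In the IL13KO cocultures Ssr1 was called lower without monoculture 3 (-0.37, 0.00309), with upper-quartile scaling (0.0133), by limma-voom (0.0475), with a stricter filter (0.0499) and after that correction (-0.55, 0.00203).

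Ssr3 had 1070.0, 1070.0 and 1219 CPM with WT ILC2s, 833, 836 and 883 with IL13KO ILC2s and 1191, 1168, 948 and 1183 in monoculture. It was called higher in the WT against the IL13KO cocultures (0.40 ± 0.10, edgeR adjusted p = 0.0135) and lower in the IL13KO cocultures than in monoculture (-0.40 ± 0.10, 0.00322; after GC and length correction -0.04, 0.666), while the WT cocultures and monocultures overlapped (-0.00 ± 0.10, 0.972; after that correction 0.37, 0.00049). Sec61b, a small subunit of the channel, was lower in both cocultures than in monoculture, with 225, 270 and 271 CPM with WT ILC2s, 193, 202 and 223 with IL13KO ILC2s and 305, 314, 309 and 322 in monoculture. Its log2 fold changes were 0.31 ± 0.09 in the WT against the IL13KO cocultures (0.0315), -0.29 ± 0.09 in the WT cocultures against monoculture (0.0121) and -0.60 ± 0.09 in the IL13KO cocultures against monoculture (0.00011). Between the cocultures the call of Ssr3 ended without WT coculture 4 or IL13KO coculture 1 or 2 (0.0551 to 0.0595) and that of Sec61b without WT coculture 3 or 4 or IL13KO coculture 1 or 2 (0.0901 to 0.13), and against monoculture the WT call of Sec61b ended without WT coculture 1 (0.0704).

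Sec61a1, the gene of the channel's pore, showed the opposite direction to Sec61b against monoculture. It had 929, 750 and 731 CPM with WT ILC2s, 586, 618 and 624 with IL13KO ILC2s and 109, 191, 254 and 200 in monoculture. The 3 groups did not overlap. Log2 fold changes were 2.09 ± 0.20 and 1.69 ± 0.20 for the WT and IL13KO cocultures against monoculture (edgeR adjusted p = 2.27e-06 and 2.09e-05), after GC and length correction 1.32 and 0.82. In the WT against the IL13KO cocultures Sec61a1 stood at 0.40 ± 0.22 (0.211), and it was called with only those groups in the fit (0.00836), without monoculture 1 (0.0237) and after that correction (0.50, 0.0197). An opposite-strand gene shares 8.16% of its exon length.

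**Figure D3:**
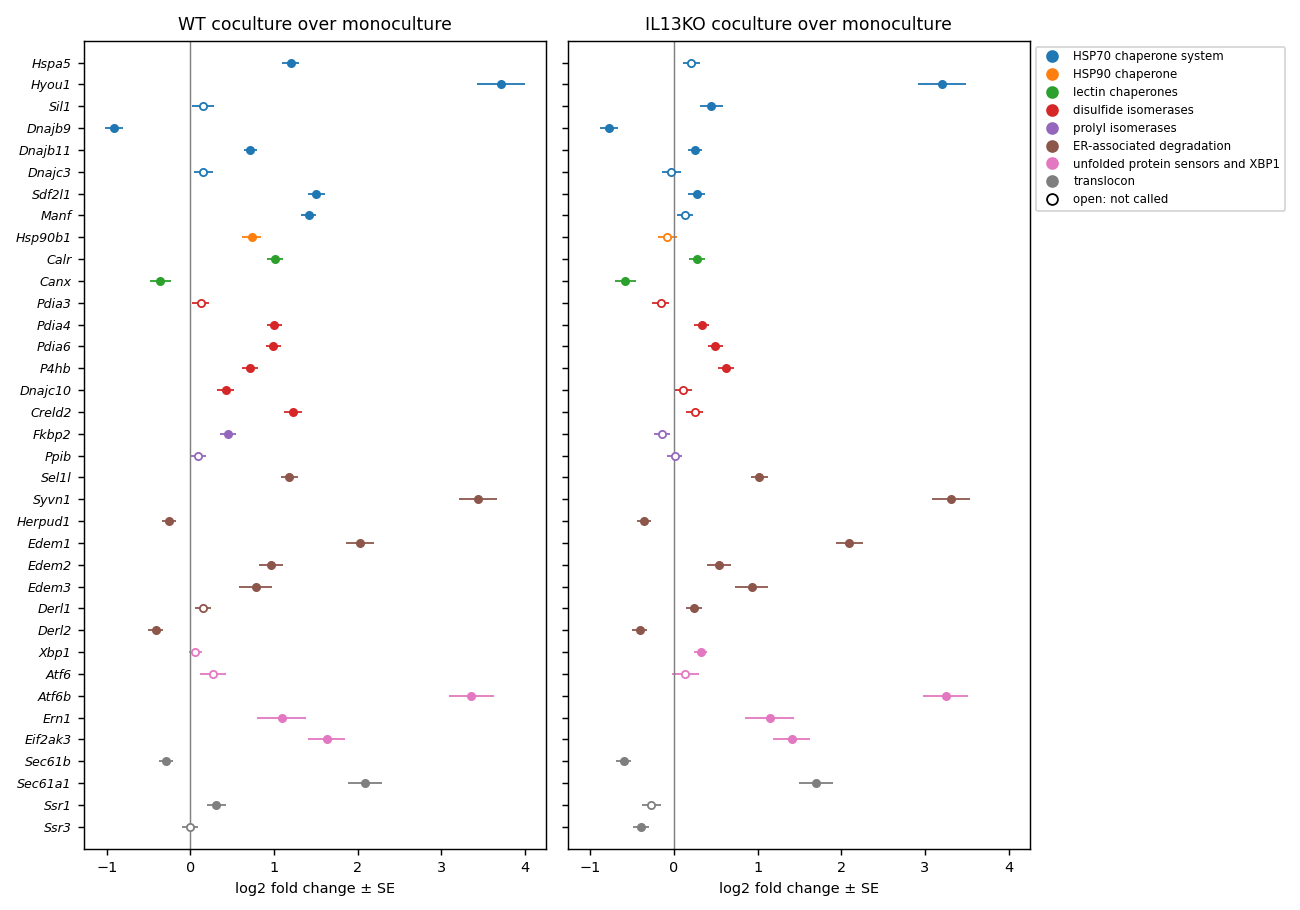
Log2 fold change over monoculture with its SE for the 36 tested genes, in the WT cocultures (left) and the IL13KO cocultures (right), coloured by role, with open circles for genes that were not called. Hyou1, Syvn1 and Atf6b lie beyond a log2 fold change of 3 in both panels, Dnajb9 lies farthest to the left in both, and Hspa5, Manf and Hsp90b1 are filled at left and open at right.

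Genes of ER-associated degradation were higher in both cocultures than in monoculture for several members and were not called apart between the cocultures. None of the 8 tested genes was called in the WT against the IL13KO cocultures by the main edgeR fit, with Edem2 as the 1 gene at an unadjusted p under 0.05. DESeq2, limma-voom and other settings given below called Edem2. Syvn1 encodes HRD1, the ubiquitin ligase of the degradation channel. It had 102, 74.8 and 53.5 CPM with WT ILC2s, 70.6, 77.9 and 62.7 with IL13KO ILC2s and 4.98, 6.37, 9.31 and 7.80 in monoculture. Its log2 fold changes against monoculture were 3.44 ± 0.23 and 3.31 ± 0.23 (edgeR adjusted p = 9.81e-08 and 4.65e-07), after GC and length correction 2.09 and 1.77, and 0.13 ± 0.22 between the cocultures (0.718). The cocultures lay far above monoculture and overlapped with each other. Sel1l, the gene of HRD1's adaptor, averaged 223 ± 24.3 CPM with WT ILC2s, 199 ± 15.7 with IL13KO ILC2s and 98.1 ± 9.17 in monoculture (SD, n = 3, 3 and 4). Its changes against monoculture were 1.18 ± 0.10 and 1.02 ± 0.10, and after GC and length correction 0.79 and 0.53.

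Edem1, Edem2 and Edem3 encode proteins that mark misfolded glycoproteins by trimming their mannose. Edem1 had 309, 176 and 214 CPM with WT ILC2s, 206, 265 and 262 with IL13KO ILC2s and 51.7, 59.9, 57.6 and 59.2 in monoculture. Its log2 fold change against monoculture was 2.03 ± 0.16 and 2.10 ± 0.16 in the WT and IL13KO cocultures (edgeR adjusted p = 4.63e-07 and 9.66e-07), after GC and length correction 1.78 in both. Every coculture library was above every monoculture library for the 3 genes. Edem2 had 74.8, 77.3 and 74.9 CPM with WT ILC2s, 55.1, 57.5 and 56.5 with IL13KO ILC2s and 27.6, 37.6, 47.3 and 42.3 in monoculture. It was called against monoculture in the WT (0.97 ± 0.14, 6.93e-05) and IL13KO cocultures (0.54 ± 0.14, 0.00591). After that correction these values were 0.58 (0.000273) and 0.10 (0.436). Between the cocultures Edem2 was at 0.43 ± 0.15 (0.06), called by DESeq2 (0.0355), by limma-voom (0.029) and without monoculture 1 or 3 (0.00538 to 0.03). It was also called with only these groups in the fit (0.00181) and after GC and length correction (0.48, 0.00553). Edem3 rose against monoculture by 0.78 ± 0.20 with WT ILC2s and 0.93 ± 0.20 with IL13KO ILC2s (0.00373 and 0.00136).

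Herpud1 and Derl2 went the other way. Herpud1, a scaffold of the degradation complex that is widely used as a marker of ER stress, averaged 342 ± 24.6 CPM with WT ILC2s, 319 ± 19.97 with IL13KO ILC2s and 409 ± 20.6 in monoculture (SD, n = 3, 3 and 4), log2 fold changes of -0.26 ± 0.08 (edgeR adjusted p = 0.0164) and -0.36 ± 0.08 (0.00268) against monoculture. The WT call of Herpud1 ended without WT coculture 1 or 4 (0.0541 to 0.0783). Derl2, one of the derlins of the channel, fell by 0.41 ± 0.09 on the log2 scale in each coculture against monoculture. Derl1, another derlin, averaged 364 ± 24.4 CPM with WT ILC2s, 386 ± 3.47 with IL13KO ILC2s and 328 ± 36.5 in monoculture, and was called higher in the IL13KO cocultures against monoculture (0.24 ± 0.10, 0.0489). That call ended without WT coculture 3, any of the IL13KO cocultures or monoculture 1 or 3 (0.0827 to 0.109), with upper-quartile scaling (0.229), with no filter (0.0565), with only the groups compared (0.0651) and after GC and length correction (-0.06, 0.545). Derl3 had 1, 2 and 4 reads with WT ILC2s, 5, 7 and 9 with IL13KO ILC2s and 2, 2, 13 and 7 in monoculture, too few to be tested.

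The sensors of unfolded protein had low levels next to the chaperones. Per kilobase of exon, Ern1 (IRE1) stood at 1.24 CPM with WT ILC2s, 1.29 with IL13KO ILC2s and 0.579 in monoculture, and Eif2ak3 (PERK) at 3.36 with WT ILC2s, 2.88 with IL13KO ILC2s and 1.09 in monoculture. Xbp1, whose mRNA IRE1 splices, stood at 317 CPM per kb with WT ILC2s, 379 with IL13KO ILC2s and 304 in monoculture. Counts per gene do not tell spliced from unspliced Xbp1 mRNA. Xbp1 was the 1 gene of the set that was called lower in the WT than in the IL13KO cocultures. It had 1080.0, 1020.0 and 991 CPM with WT ILC2s, 1259, 1198 and 1237 with IL13KO ILC2s and 948, 1003, 946 and 1057 in monoculture, a log2 fold change of -0.26 ± 0.08 (edgeR adjusted p = 0.0357). The WT and IL13KO cocultures did not overlap, and the WT cocultures overlapped with monoculture (0.06 ± 0.08, 0.511). After GC and length correction Xbp1 was called lower in the WT cocultures than in monoculture (-0.25, 0.0133). The call of Xbp1 between the cocultures ended without WT coculture 3 or 4, any of the IL13KO cocultures or monoculture 2 (0.0537 to 0.128), with no filter (0.0698) and after GC and length correction (-0.22, 0.0667). In the IL13KO cocultures against monoculture Xbp1 was called higher (0.32 ± 0.08, 0.00301), and stood at -0.03 (0.769) after that correction.

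Atf6b, a relative of Atf6, had 90.1, 79.2 and 52.9 CPM with WT ILC2s, 64.5, 69.1 and 72.0 with IL13KO ILC2s and 4.31, 5.18, 11.7 and 7.80 in monoculture. Each coculture library was above each monoculture library, and the cocultures overlapped with each other (0.11 ± 0.26, edgeR adjusted p = 0.796). Log2 fold changes against monoculture were 3.36 ± 0.27 and 3.25 ± 0.27 (4.46e-07 and 1.45e-06), and 2.06 and 1.73 after GC and length correction. The longest transcript of Atf6b has a GC content of 60.3%, above that of 96.5% of all tested genes. Ern1 had 13.5, 9.27 and 7.60 CPM with WT ILC2s, 13.2, 8.75 and 9.58 with IL13KO ILC2s and 4.22, 7.55, 3.50 and 3.66 in monoculture. It was called in both cocultures against monoculture (1.09 ± 0.29, 0.00525, and 1.14 ± 0.29, 0.00462), and both calls ended after that correction (to log2 fold changes of 0.23 and 0.16). Eif2ak3 was called in both as well (1.63 ± 0.22, 3.25e-05, and 1.41 ± 0.22, 0.000156), at 0.88 (0.00475) and 0.56 (0.0588) after that correction, and Atf6 in neither (0.27 ± 0.16 and 0.13 ± 0.16).

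**Figure D4:**
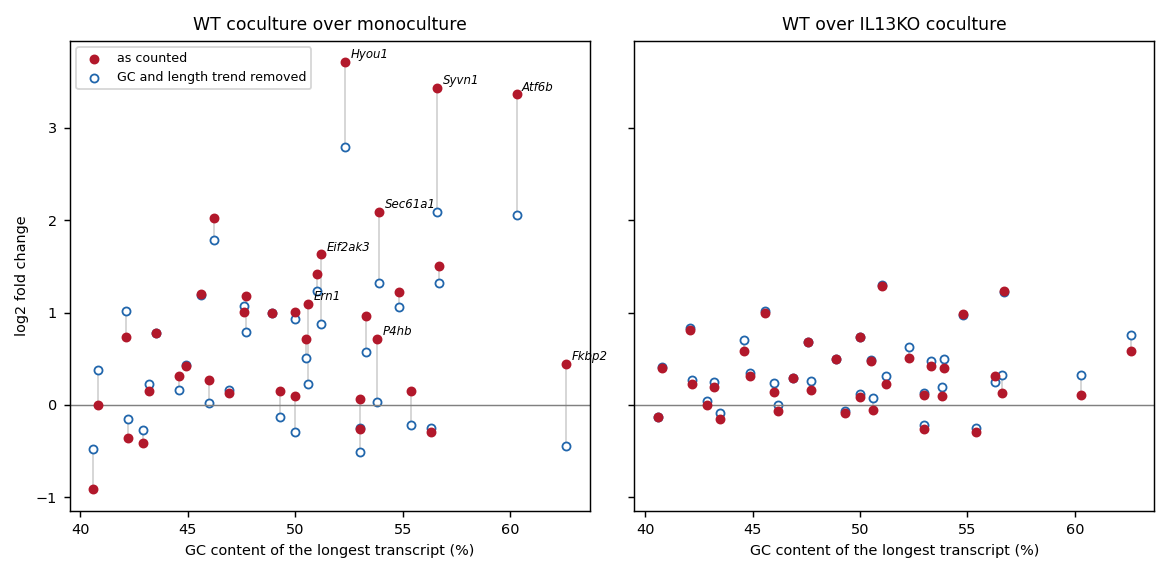
Log2 fold change of the 36 tested genes against the GC content of the longest transcript (%), as counted (filled) and after GC and length correction (open), for the WT cocultures over monoculture (left) and over the IL13KO cocultures (right); names mark genes moved by more than 1.5-fold. At left Hyou1, Syvn1, Atf6b, Sec61a1, Eif2ak3, Ern1, P4hb and Fkbp2 drop on correction, and at right no gene moves by that much.

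Genes around this machinery were followed through 11 further lists, also chosen with earlier results of these data known. Of oligosaccharyltransferase subunits, which attach glycans to proteins as they enter the ER, 7 of 11 tested genes rose in the WT against the IL13KO cocultures and 0 fell, where 11.7% of all tested genes were called in each direction, with a median log2 fold change of 0.31, beside -0.00 for all tested genes. Rpn1 averaged 975 ± 40.4 CPM with WT ILC2s and 497 ± 19.6 with IL13KO ILC2s (0.97 ± 0.13, edgeR adjusted p = 0.000204). Ostc (0.70 ± 0.11), Krtcap2 (0.48 ± 0.08) and Stt3a (0.38 ± 0.09), 3 other subunits, rose as well. Of glycan trimming and lectin genes 4 of 9 rose and 0 fell (median 0.32), among them Lman1, a cargo receptor (0.56 ± 0.08), and Prkcsh, a subunit of glucosidase II (0.54 ± 0.11). Of other translocation, signal recognition and signal peptidase genes 8 of 22 rose and 1 fell (median 0.27): Ssr2, another subunit beside Ssr1 and Ssr3, rose by 0.69 ± 0.08, and Srp14 of the signal recognition particle fell by 0.47 ± 0.08.

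Of the list of COPII transport, which carries folded proteins out of the ER, and KDEL retrieval, which brings escaped chaperones back, 6 of 20 genes rose in the WT against the IL13KO cocultures and 0 fell (median 0.25). The KDEL receptors Kdelr3 and Kdelr2 rose by 0.76 ± 0.10 and 0.51 ± 0.08 (edgeR adjusted p = 0.000139 and 0.000702). Collagen folding and modification genes rose for 8 of 20 and fell for 2 (median 0.28). Fkbp11 rose by 0.99 ± 0.12, P4ha1, the partner subunit of P4hb, by 0.82 ± 0.11 and Plod2, a lysyl hydroxylase, by 0.64 ± 0.10, and Tmem38b, an ER cation channel, fell by 2.01 ± 0.14. Other disulfide isomerases and oxidases rose for 3 of 14 (median 0.13), namely Erp29 (0.68 ± 0.09), Tmx1 (0.65 ± 0.12) and Erp44 (0.50 ± 0.09), and Prdx4, a peroxidase, fell (-0.32 ± 0.10). Calcium-binding proteins and calcium channels of the ER rose for 3 of 12 and fell for 4 (median -0.30): the channel gene Itpr1 averaged 60.9 ± 2.40 CPM with WT ILC2s and 14.5 ± 3.04 with IL13KO ILC2s (2.07 ± 0.23), and Stim1, the calcium sensor of the ER, 13.5 ± 4.01 and 28.4 ± 2.52 (-1.07 ± 0.21). Of other degradation genes 1 of 20 rose and 2 fell (median -0.15). Chaperones of the cytosol and mitochondria, outside the ER, rose for 9 of 20 and fell for 1 (median 0.30), among them Tcp1 (0.57 ± 0.08), Hspd1 (0.64 ± 0.11) and Hspe1 (0.61 ± 0.11).

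Against monoculture the counts of these lists stand beside 32.8% of all tested genes called higher and 29.7% lower in the WT cocultures, and 30.1% and 27.2% in the IL13KO cocultures. COPII transport and KDEL retrieval genes rose for 16 of 20 and fell for 1 in the WT cocultures (median log2 fold change 0.75) and rose for 13 and fell for 1 in the IL13KO cocultures (0.38). Collagen folding genes rose for 15 of 20 and fell for 2 in the WT cocultures (0.85) and rose for 14 and fell for 3 in the IL13KO cocultures (0.62). Glycan trimming and lectin genes rose for 8 of 9 and fell for 1 in the WT cocultures (1.54) and rose for 6 and fell for 0 in the IL13KO cocultures (1.0). Man1b1, an ER mannosidase, averaged 113 ± 25.7 CPM with WT ILC2s, 114 ± 5.90 with IL13KO ILC2s and 15.0 ± 4.70 in monoculture, and Sec31a of the COPII coat 428 ± 46.4, 409 ± 13.1 and 106 ± 18.4 in these groups (SD, n = 3, 3 and 4). Oligosaccharyltransferase genes rose for 5 of 11 and fell for 2 in the WT cocultures and rose for 4 and fell for 5 in the IL13KO cocultures, and other translocation genes rose for 7 of 22 and fell for 8, and rose for 4 and fell for 12, in these comparisons. The WT counts of the other translocation genes were near the shares of all tested genes. Cytosolic and mitochondrial chaperones rose for 7 of 20 and fell for 7 in the WT cocultures and rose for 4 and fell for 10 in the IL13KO cocultures. Other degradation genes rose for 10 of 20 and fell for 7 in each coculture.

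Among 10 further genes of sensors and their processing 2 rose in the WT against the IL13KO cocultures and 0 fell (median 0.07). Creb3l1, the ER-bound factor OASIS, had 143 ± 15.4 CPM with WT ILC2s, 35.9 ± 6.48 with IL13KO ILC2s and 8.85 ± 3.20 in monoculture (SD, n = 3, 3 and 4), log2 fold changes of 1.99 ± 0.22, 4.01 ± 0.23 and 2.02 ± 0.22 for the WT against the IL13KO cocultures and for the WT and IL13KO cocultures against monoculture. Of 10 outputs of PERK and ATF4 1 rose and 0 fell in the WT against the IL13KO cocultures (median 0.12). That gene was Atf3, with 6.10 ± 1.29 CPM with WT ILC2s and 1.38 ± 0.777 with IL13KO ILC2s (2.14 ± 0.44, edgeR adjusted p = 0.004). In this comparison 11.7% of all tested genes were called in each direction. With 10 genes in each list, neither count of higher calls was far from that share. Against monoculture 4 of the 10 PERK and ATF4 outputs rose and 2 fell in the WT cocultures (32.8% and 29.7% of all tested genes), and 5 rose and 2 fell in the IL13KO cocultures (30.1% and 27.2%). Ddit3, the gene of the stress factor CHOP, was lower in both, with 29.3 ± 6.21 CPM with WT ILC2s, 32.3 ± 0.975 with IL13KO ILC2s and 64.4 ± 7.90 in monoculture (-1.14 ± 0.14 and -1.0 ± 0.14). Sesn2, a stress-induced regulator of TOR signalling, was higher in both (2.81 ± 0.26 and 2.87 ± 0.26).

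**Figure D5:**
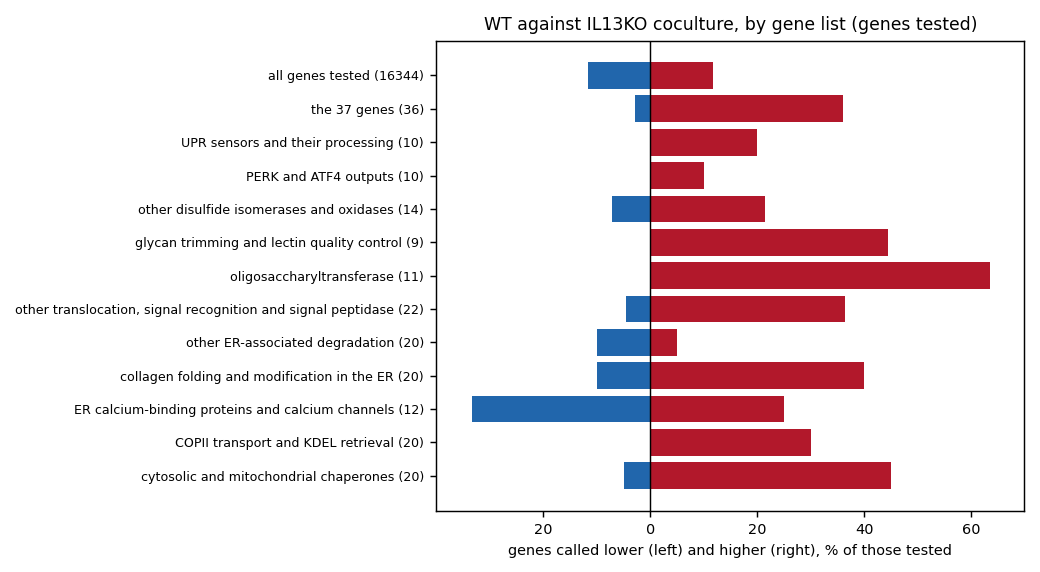
Share of the tested genes of each list called higher (right) and lower (left) in the WT against the IL13KO cocultures, in percent, with the number tested in brackets and all tested genes in the top bar. The oligosaccharyltransferase list has 7 of 11 genes called higher, the other degradation genes 1 of 20, and all tested genes 11.7% in each direction.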

How the data were processed

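RNA was sequenced as paired ends of 50 nt. Per the submitters' processing notes DESeq2, Salmon 1.6.0, Picard, Trimmomatic 0.39, FastQC 0.11.9 and STAR 2.7.7a were used with build GRCm38.p6. The counting step, annotation and strand setting are not given in the sources used here. The deposited counts are whole reads per gene, not normalized by the authors; a second, normalized table was not used.

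Counts were fitted in edgeR 4.0.16 (filterByExpr, TMM scaling, robust quasi-likelihood) over all 10 libraries with 1 coefficient per group, and Benjamini-Hochberg adjustment over 16344 tested genes. Genes were called at an adjusted p of 0.05. CPM use TMM-scaled library sizes, and SE is the log2 fold change divided by the root of F. A test against 1.5-fold used glmTreat. GENCODE M21 gave symbols for 22647 of 22731 genes, and transcript length and GC content for 22639. RefSeq promoter windows were searched on both strands.

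The members and lists were chosen with earlier results of these data known. Every member could be named, and of other lists up to 4 genes with the smallest adjusted p per comparison. Promoters were to be shown for members high in both cocultures; those with a motif were shown instead, chosen after values were seen. Values per library are of the 3, 3 and 4 libraries of each group. The fit was tested on simulated data with monoculture means. In each comparison 100 of 16344 genes were changed by 0.5 and 100 by 1 on the log2 scale. Between the cocultures the fit called 5% of the genes changed by 0.5 and 52% of those changed by 1. Against monoculture these shares were 12% and 61% in the WT and 10% and 59% in the IL13KO comparison. Changes of this size can thus be missed. Alternatives were other scalings, DESeq2 1.42.0, limma-voom (limma 3.58.1), filters, the groups in the fit, a block by column number, removal of the GC and length trend (loess) and each library left out. Replicates of a group differed by more than sampling noise (chi-square per gene 7.14 to 32.0), so none was counted as a repeat. Depth limits precision, and 3 counts correspond to 0.135 to 0.277 CPM.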

Additional observations from a re-analysis of the deposited data

Results flagged for a closer look

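Among the 36 tested genes, each examined in the group of 4 monocultures, 1 value lay far from the rest of its group: Ssr3, a subunit of the translocon-associated complex, had 948.2 CPM in monoculture 3, against 1168 to 1191 CPM in the other monocultures. Its gap to the nearest library was 0.905 of the group's range, above Dixon's critical value for 4 libraries. Chance marks about 1 in 20 groups.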

How the results depend on the processing

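Of the values of single genes, 671 against monoculture in the WT comparison, 647 in the IL13KO comparison and 651 between the cocultures kept direction and side of the threshold under the alternatives. Among values that kept their direction, calls ended for 28, 52 and 28 and were gained for 4, 9 and 24. Another 17, 12 and 17 values turned in direction, and calls that ended or were gained with the turn are counted there. Tested against 1.5-fold, the WT comparison with monoculture had 1 gene called lower, the IL13KO comparison 8 higher and 1 lower, and the WT against IL13KO comparison 4 higher and 0 lower. After GC and length correction 9 genes were called higher in the IL13KO cocultures against monoculture. With no filter, with the block and after this correction 0 genes were lower between the cocultures.

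With 1 library left out, the WT comparison with monoculture had 22 to 26 genes called higher and 2 to 5 lower, the IL13KO comparison 15 to 19 and 6 to 7, and the comparison of the cocultures 11 to 17 and 0 to 1. Log2 fold changes that turned then ran, in the WT comparison, at -0.081 to 0.037 for Ssr3, in the IL13KO comparison at -0.014 to 0.029 for Ppib and -0.11 to 0.078 for Dnajc3, and between the cocultures at -0.13 to 0.34 for Syvn1, -0.077 to 0.071 for Derl2, -0.051 to 0.31 for Atf6b, -0.32 to 0.12 for Edem1, -0.44 to 0.011 for Edem3 and -0.31 to 0.15 for Ern1. Of all tested genes 23.4% were called between the cocultures, 13.9% to 29.8% with 1 library left out, 36.4% with only these groups in the fit and 13.0% with the block.

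Upper-quartile scaling moved the median of all genes to -0.11 and -0.10 in the WT and IL13KO comparisons with monoculture, and GC and length correction to -0.12 and -0.16. Upper-quartile scaling turned Ppib (-0.026) and Xbp1 (-0.061) in the WT and Ppib (-0.10) in the IL13KO comparison, and a fit of only the groups compared turned Ppib (-0.0063) in the IL13KO comparison. With no filter Ssr3 stood at 0.025 in the WT comparison. GC and length correction turned Sil1 (-0.22), Fkbp2 (-0.44), Ppib (-0.30), Derl1 (-0.13), Xbp1 (-0.25) and Ssr3 (0.37) in the WT comparison, and Manf (-0.067), Hsp90b1 (0.18), P4hb (-0.16), Ppib (-0.41), Derl1 (-0.063), Xbp1 (-0.031) and Atf6 (-0.21) in the IL13KO comparison. Between the cocultures Derl2 turned with no filter (0.011), with only these groups (0.0023), with the block (0.019) and after correction (0.042), Ern1 with the block (0.148) and after correction (0.070), and Edem1 after correction (6e-04). The cause was not tested.

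Column numbers did not pair the libraries: deviations of libraries with the same number correlated at -0.126 to 0.028. With the number as a replicate block 22 genes were called higher and 4 lower in the WT cocultures against monoculture, 16 and 6 in the IL13KO cocultures against monoculture, and 11 and 0 between the cocultures. Adjusted p was then above the threshold for the WT calls of Herpud1 (0.0578) and Ssr1 (0.055) and the IL13KO calls of Dnajb11 (0.0629), Sdf2l1 (0.0674) and Derl1 (0.115) against monoculture, and for Xbp1 (0.141), Sec61b (0.13) and Ssr3 (0.0855) between the cocultures. Depth limits Derl3, which was not tested.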
